A study of Mus musculus with 27 samples.

Results

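The mRNAs described here encode complexes II, III, IV and V of the mitochondrial inner membrane and some of the proteins that assemble them. The genes were chosen by name: Cyc1 and every symbol that starts with Sdh followed by a, b, c or d, with Uqcr, with Atp5, or with Cox followed by a digit, on probes that the array annotation assigns to 1 symbol only. The array held 59 such genes on 116 probes, out of 18194 genes. A probe counted as detected when its mean signal exceeded log2(100), an intensity of 100 on the linear scale, on at least 1 diet. By this rule 50 members with 82 probes were detected, among 6478 detected genes with 10582 probes.

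Succinate dehydrogenase (complex II) passes electrons from succinate to ubiquinone, and it is the only respiratory complex that is also an enzyme of the citric acid cycle. The cytochrome bc1 complex (complex III) passes them on to cytochrome c, and cytochrome c oxidase (complex IV) reduces oxygen. ATP synthase (complex V) uses the resulting proton gradient to make ATP, on which gluconeogenesis and urea synthesis in hepatocytes depend. All members are nuclear genes, and the core subunits of complexes III to V that mitochondrial DNA encodes are outside this set.

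Liver RNA came from male C57BL/6 mice that were 10 weeks old when purchased and were then each fed 1 diet for 3 weeks. For each mouse 1 array was run (27 arrays, 3 mice for each of 9 diets). The livers were taken in the morning from mice that had not been fasted. The diets were a diet with 60% fructose, a high-fat diet, an atherogenic diet with high fat, sucrose, cholesterol and cholic acid, a Western diet with 42% of its calories from fat, an essential fatty acid (EFA)-deficient diet, a low n-3 diet with 7% sunflower oil, diet restriction at 75% of what mice on lab chow ate freely, lab chow, and the AIN-93M purified control diet. Diet restriction was fed as lab chow, so lab chow is its closer reference, and the atherogenic diet was also set against the Western diet. The low n-3 arrays were placed by their description, because their titles name a DHA supplement. The values are log2 signals, and changes are given as percent of the reference diet with a 95% confidence interval. In whole liver, fewer cells of a type and less RNA per cell cannot be told apart.

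The isoforms detected were those of liver. For the subunits that exist as liver and muscle forms, the liver or general form (Cox6a1, Cox7a2, Cox8a, Cox4i1, Cox6b1) was detected, and the forms known from heart and muscle (Cox6a2, Cox7a1, Cox8b), lung (Cox4i2) and testis (Cox6b2, Cox7b2, Cox8c) were not. Cox7a1 reached a mean of 6.00 on its highest diet, and the other 6 reached between 2.29 and 2.49, where 2.29 is the lowest value on the arrays. The remaining undetected members were Cox7c, a subunit of the complex in all tissues, whose 2 probes read at most 5.33 on any array, and Cox10, which makes the heme of complex IV and read at most 6.36. Those 9 genes were left out of the comparisons. All 13 hepatocyte markers were detected and none of the 14 muscle markers. One detected probe is annotated to both Gm29733 and Cox14 and was not counted as a member.

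The promoters of these genes are known to carry sites of nuclear respiratory factor 1 (NRF1) and of ETS proteins such as GABP (also called NRF2), which link nuclear and mitochondrial genes. The RefSeq promoter table (GRCm38.p6) holds 250 bases before and 50 after the start of 39 of the 50 detected members. On both strands, the NRF1 core GCGCANGCG was found for 14 of the 39 (35.9%), against 7.0% of all 27025 genes in the table, and the ETS core CCGGAAG for 19 (48.7%), against 9.9%. The ERR element AAGGTCA was found for 5 (12.8%, against 5.4%) and the YY1 element AAGATGGCG for 2 (5.1%, against 1.6%). The NRF1 core reads much the same on both strands, so a single stretch can match on each. The shares of all genes include genes not detected in these livers, and no share among the detected genes alone was taken. A match is a run of letters, not a shown site. Of the members that fell on the atherogenic diet, 13 are in the table and 8 held an NRF1 or ETS core, against 18 of the other 26.

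The 150 bases before the start are given for 5 members that fell on the atherogenic diet and hold a match or, for Cox11, none, for Sdha, which fell against the Western diet, and for Cox19, the member with the largest change on diet restriction. Capitals mark NRF1 and ETS cores that lie wholly in the stretch.
Sdha (chr13:74350241-74350390, minus strand): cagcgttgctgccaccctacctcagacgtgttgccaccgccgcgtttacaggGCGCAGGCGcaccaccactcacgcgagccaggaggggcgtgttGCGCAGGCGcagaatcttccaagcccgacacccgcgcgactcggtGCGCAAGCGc
Sdhd (chr9:50603850-50603999, minus strand): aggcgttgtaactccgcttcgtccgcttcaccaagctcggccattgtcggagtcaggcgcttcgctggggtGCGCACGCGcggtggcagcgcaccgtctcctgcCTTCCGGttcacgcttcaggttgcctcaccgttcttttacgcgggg
Uqcrh (chr4:116075071-116075220, minus strand): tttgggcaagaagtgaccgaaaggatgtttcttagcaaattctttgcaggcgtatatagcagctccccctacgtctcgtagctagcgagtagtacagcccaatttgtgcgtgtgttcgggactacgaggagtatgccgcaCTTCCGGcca
Uqcr11 (chr10:80406822-80406971, minus strand): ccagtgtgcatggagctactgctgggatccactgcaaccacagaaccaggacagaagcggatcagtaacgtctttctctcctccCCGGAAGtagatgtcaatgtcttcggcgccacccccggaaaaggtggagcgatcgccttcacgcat
Atp5k (chr5:108434400-108434549, minus strand): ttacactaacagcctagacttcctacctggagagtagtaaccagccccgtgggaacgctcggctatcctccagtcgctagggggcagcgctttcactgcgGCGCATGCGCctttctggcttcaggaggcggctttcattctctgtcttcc
Cox11 (chr11:90638034-90638183, plus strand): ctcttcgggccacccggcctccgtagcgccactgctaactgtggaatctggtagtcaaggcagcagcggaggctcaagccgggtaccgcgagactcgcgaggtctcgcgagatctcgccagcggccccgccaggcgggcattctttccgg
Cox19 (chr5:139345167-139345316, minus strand): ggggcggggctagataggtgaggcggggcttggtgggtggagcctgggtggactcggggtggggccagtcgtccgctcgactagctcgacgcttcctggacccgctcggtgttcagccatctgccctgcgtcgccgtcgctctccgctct
Sdha held 3 NRF1 cores in this stretch and Sdhd an NRF1 and an ETS core, whereas the stretches of Cox11 and Cox19 held none of the 4 motifs.

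Over the 9 diets, 35 of the 50 detected members varied (70%, limma F test with Benjamini-Hochberg adjustment), a share close to the 71.6% of all detected genes. The differences between single diets were modest. In the 8 comparisons with the control diet 24 members passed the test at least once (48%, beside 50.9% of all detected genes) and 26 did not. In 3 or more of the 10 comparisons made, 7 members passed it (14%, beside 17.1% of all detected genes): Sdhaf2, Uqcrfs1, Atp5k, Cox18, Cox5b, Sdhb and Uqcr10. The comparisons with control share the control mice, and those of the atherogenic and diet-restricted mice share these mice, so such counts are not independent.

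**Figure D1:**
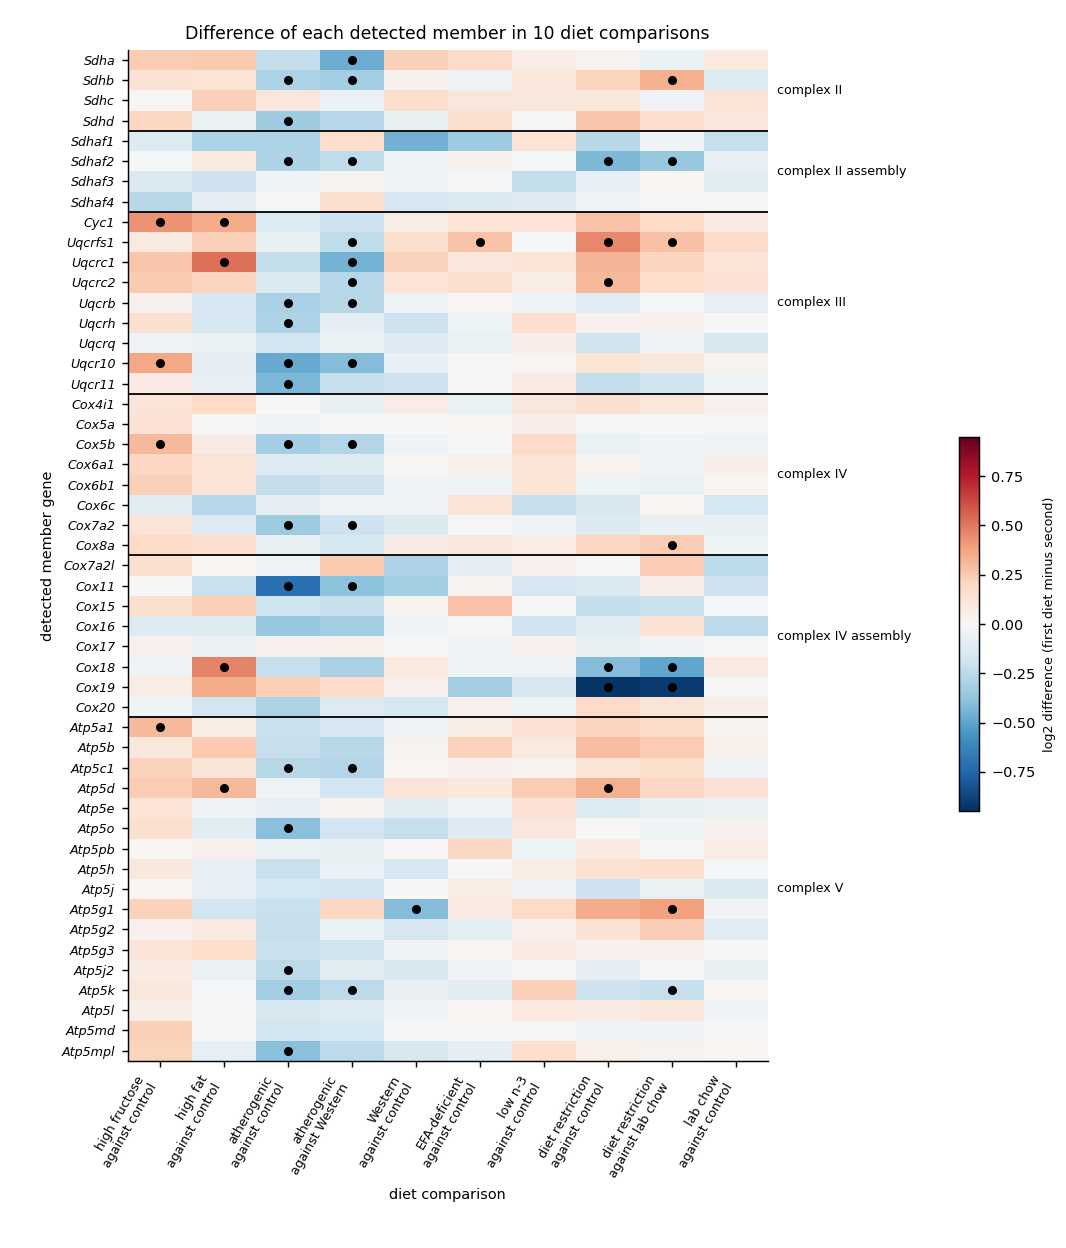
Log2 difference of each of the 50 detected members (rows, by complex) in 10 diet comparisons (columns; first diet minus second; 3 arrays per diet). Red is higher and blue lower in the first diet, and a dot marks an adjusted p under 0.05; the column of the atherogenic diet against control is mostly blue, with 15 dots.

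The atherogenic diet lowered more members than any other diet. Against control 15 of 50 members fell (30%, to between 61% and 83.9% of control) and 0 rose, while 5.88% of all detected genes fell and 9.03% rose. The difference was below 0 for 47 of the 50 members. Their median was -0.21 on the log2 scale, beside 0.03 for all detected genes. The fall reached every complex: 2 of 4 subunits of complex II (median -0.26), 4 of 9 of complex III (-0.23), 2 of 8 of complex IV (-0.10) and 5 of 17 of complex V (-0.21), with 1 of 4 complex II assembly factors and 1 of 8 for complex IV.

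Cox11, which delivers copper to the catalytic core of complex IV, changed most. Its signal was 7.87, 8.21 and 7.76 in the atherogenic mice, against 8.67, 8.61 and 8.70 in control mice. The groups did not overlap, and Cox11 was at 61% of control (51.5 to 72.1%, adjusted p = 3e-04, limma). Among complex III subunits, Uqcr10 was 9.86, 9.64 and 9.74 in atherogenic livers, against 10.28, 10.20 and 10.21 in controls, which is 71.5% of control (61.4 to 83.2%, adjusted p = 0.0045). All 3 probes of Uqcr10 fell, by 0.48, 0.50 and 0.48 on the log2 scale. Uqcr11, another small subunit of the complex, was at 74.3% (12.71, 12.63 and 12.71, against 13.15, 13.04 and 13.15 in controls; adjusted p = 0.015). Uqcrb and the hinge protein gene Uqcrh also fell, to 80.4% and 81.8%. Other subunits of complex III were not called: cytochrome c1 (Cyc1), the Rieske protein (Uqcrfs1) and the core proteins Uqcrc1 and Uqcrc2 had log2 differences below 0 with adjusted p above 0.05.

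In complex II, the iron-sulfur subunit Sdhb was 12.59, 12.51 and 12.69 in the atherogenic mice, against 12.86, 12.91 and 12.90 in controls (81.4% of control, adjusted p = 0.038). The membrane anchor Sdhd was at 79.2% (adjusted p = 0.049) with overlapping groups, and Sdhaf2, which attaches the flavin to Sdha, was at 81.9%. The flavoprotein Sdha itself stood at 85.1% of control (75.0 to 96.5%, adjusted p = 0.1). In complex IV, the liver form Cox7a2 fell to 79.2% (13.73, 13.64 and 13.72, against 14.09, 14.01 and 14.00 in controls; adjusted p = 0.0018), on both of its probes, and Cox5b to 79.9%. Cox4i1 was at 100% (88.5 to 113%) and Cox5a at 98.3% (89.1 to 108%) in the same livers. In ATP synthase, the fall was in the gamma subunit Atp5c1 (83.2%), the stalk subunit Atp5o (75.6%) and the membrane subunits Atp5mpl (75.5%), Atp5k (80.1%) and Atp5j2 (83.9%). The alpha and beta subunits that form the catalytic head, Atp5a1 and Atp5b, were below control in the mean without passing the test, Atp5b at 85.7% (72.6 to 101%, adjusted p = 0.25).

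**Figure D2:**
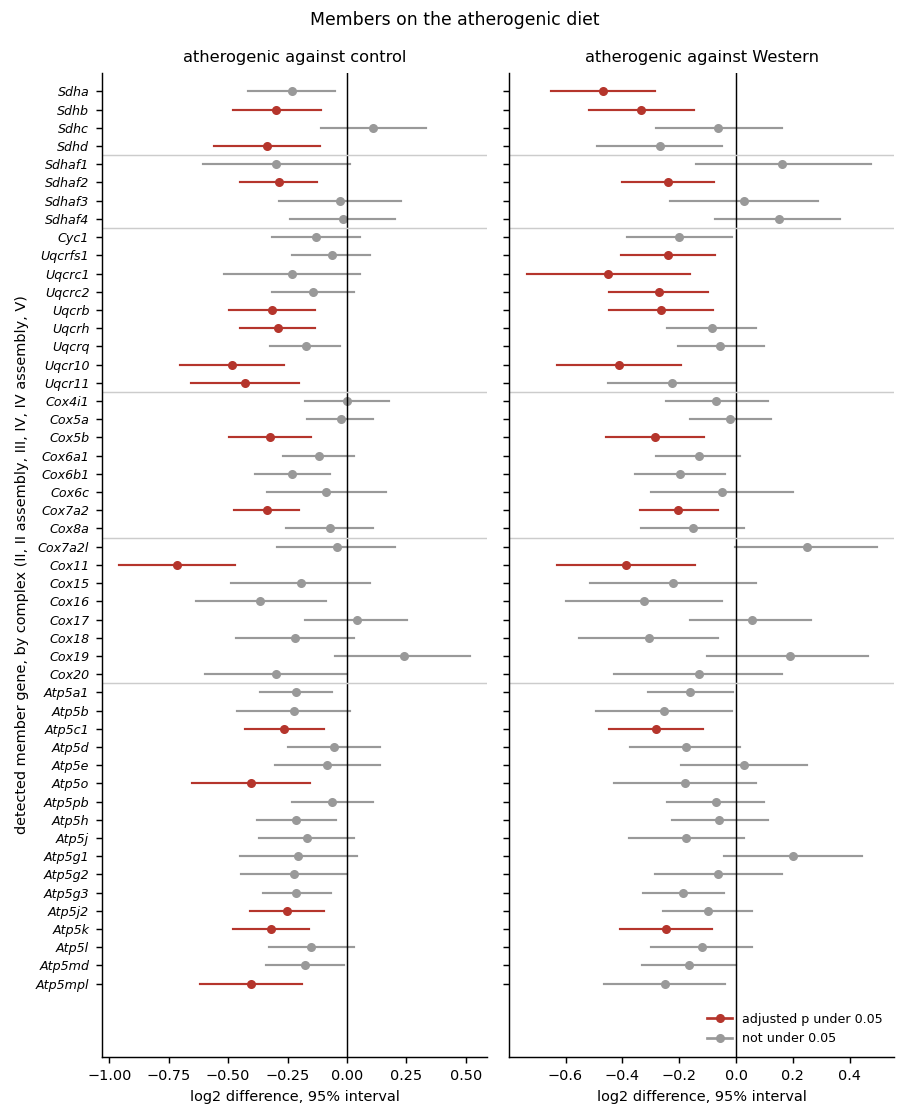
Log2 difference with its 95% interval for the 50 detected members on the atherogenic diet, against control (left) and against the Western diet (right), 3 arrays per diet. Red marks an adjusted p under 0.05: 15 members on the left and 13 on the right, all below 0.

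The Western diet is also rich in fat and sucrose, but the study lists it with less cholesterol and no cholic acid. Against the Western diet, 13 of 50 members were lower on the atherogenic diet (26%) and 0 higher. Of all detected genes, 6.50% were lower and 11.3% higher. The members' median was -0.18 (all genes 0.05), and 42 of the 50 were below 0. Among them were the flavoprotein of complex II and the Rieske and core proteins of complex III. Sdha was 11.82, 11.60 and 11.97 in the atherogenic mice, against 12.18, 12.24 and 12.37 in the Western mice, with no overlap (72.3% of Western, 63.7 to 82.0%, adjusted p = 0.00084). Uqcrc1 was 11.49, 11.38 and 11.40, against 11.68, 11.77 and 12.18 in Western mice (73.2%, adjusted p = 0.028), where 1 Western liver lay well above the other two. Uqcrfs1 and Uqcrc2 were at 84.7% and 82.9% of Western, Uqcr10 at 75.2% and Cox11 at 76.5%, the last with overlapping groups.

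Markers of Kupffer cells, the macrophages of the liver, moved with this diet: their summed signal on the linear scale was 13900 to 23600 on the atherogenic diet, against 4520 to 5430 on the Western diet and 6650 to 7700 on control. Of the 14 markers 11 were detected, and 5 passed the test against control and 10 against Western, all higher; none was at the lowest value in the atherogenic livers. The summed signal of the 13 hepatocyte markers was 522000 to 563000 on the atherogenic diet, 541000 to 587000 on Western and 558000 to 571000 on control. Of these 13, 0 passed the test against control (median -0.07). Against Western 3 were lower and 1 higher (median -0.07). Markers of the sinusoidal endothelium lay lower: of 12 detected, 2 fell against control and 0 rose (median -0.52), Dnase1l3 to 54% and Clec4g to 61.4% of control, and 0 passed the test against Western (median -0.24). Their summed signal was 2280 to 4880 on the atherogenic diet, against 3720 to 4390 on the Western diet and 4650 to 5480 on control. On every other diet their median against control was also below 0, from -0.04 on high fructose to -0.41 on lab chow, where 2 fell. Of 7 detected stellate cell markers 0 passed the test against control (median -0.23). The stellate sum spread from 2650 to 9360 in atherogenic livers, against 5930 to 6940 on Western and 6200 to 7580 on control. The summed signal of the 8 adipocyte markers was 3240 to 7170, against 9000 to 14200 on the Western diet and 9450 to 13000 on control, and nearly all of it came from Elovl3, a fatty acid elongase that liver also expresses. Neither Elovl3 (47.5% of control, adjusted p = 0.21) nor Fabp4 (110%, adjusted p = 0.77), the only adipocyte markers detected, passed the test on this diet, against Western included. The part of the cell mixture in the members' values was not tested. The counts also rested on single mice: against control 8 members passed the test without atherogenic replicate 1 or without atherogenic replicate 2, and 5 without control replicate 3, while the median stayed between -0.24 and -0.19. Against the Western diet 7, 3 and 8 passed without atherogenic replicate 1, 2 or 3, and 3 without Western replicate 3. In fits of the compared diets alone, 3 members passed against control and 0 against Western. Cox11 and Uqcr10 passed the test against control under each alternative run.

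Among genes around the complexes, of 40 detected complex I genes, 13 fell against control and 0 rose (median -0.25), with Ndufb10 at 68.3% of control, and of 76 genes of the mitochondrial ribosome 21 fell and 1 rose (median -0.21). Atpaf1, an assembly factor of the ATP synthase head, was at 56.2% of control (adjusted p = 0.00014). The 17 citric acid cycle genes were split, with 2 lower and 1 higher. Of the 15 detected genes of the vacuolar proton pump, which resembles ATP synthase but sits in lysosomes, 3 rose and 0 fell (median 0.18). Genes outside the mitochondria fell too: of 43 detected genes of the cytosolic ribosome 12 were lower than on control and 0 higher (median -0.21), whereas against the Western diet 3 were higher and 0 lower (median 0.07). That fall was not particular to the atherogenic diet. Against control, 23 of the 43 were lower on the Western diet (median -0.32) and 12 on the high-fat diet (median -0.24), with 0 higher on either.

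**Figure D3:**
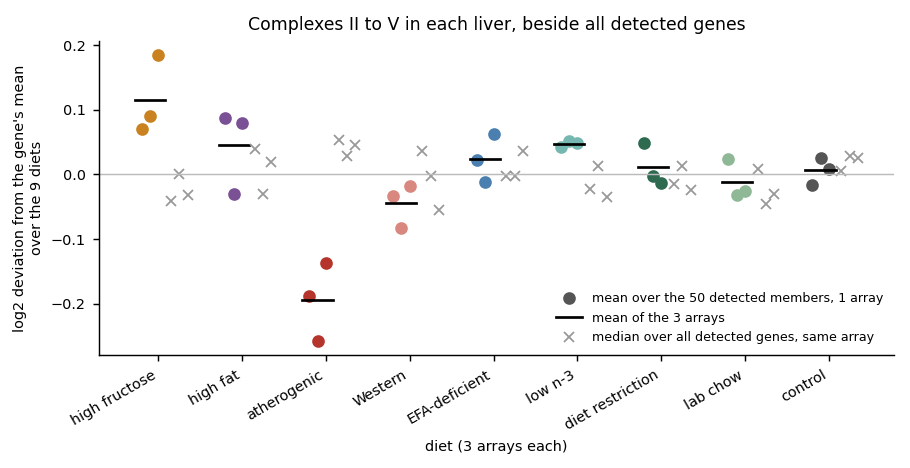
Mean log2 deviation of the 50 detected members in each of the 27 livers (filled points; bar, mean of 3) beside the median deviation of all detected genes in the same liver (crosses), by diet. The atherogenic livers lay at -0.26, -0.19 and -0.14, below all others, and the high-fructose livers at 0.07, 0.09 and 0.18; the crosses of all 27 livers lay close to 0.

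On the high-fructose diet the members lay to the other side. The difference from control was above 0 for 41 of 50, with a median of 0.12 (all genes -0.04), but 4 members rose (8%) and 0 fell, beside 1.17% of all genes higher and 2.73% lower. Cytochrome c1 (Cyc1), the heme subunit that hands electrons to cytochrome c, rose most. It was 12.83, 12.66 and 12.84 in the high-fructose livers, against 12.28, 12.42 and 12.36 in controls, which is 135% of control (118 to 153%, adjusted p = 0.003). Uqcr10 was 10.45, 10.55 and 10.79 on fructose, against 10.28, 10.20 and 10.21 in controls (129%, adjusted p = 0.03). Atp5a1 was 11.74, 11.67 and 11.79, against 11.31, 11.50 and 11.45 in controls (124%, adjusted p = 0.0075). Cox5b rose to 124% as well (13.98, 13.91 and 14.08, against 13.73, 13.68 and 13.62 in controls; adjusted p = 0.018). For all of these genes the highest control liver lay under the lowest fructose liver. On this diet 22 of the 50 members did not overlap control in 1 direction or the other, beside 24.6% of all detected genes. One mouse carried much of the shift: without high fructose replicate 3 the median was 0.06 and 2 members passed, and 2 passed without control replicate 3. Of the complex I genes 2 rose and 0 fell in these livers, Ndufa12 to 133% and Ndufb8 to 134% of control.

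The high-fat diet also raised 4 members (8%) and lowered 0, but here 6.00% of all detected genes rose and 3.33% fell, so the share of members is near that of all genes. The median was 0.00, and 25 members were above 0 and 25 below. Core protein 1 of complex III (Uqcrc1) was 12.24, 12.30 and 11.99 in high-fat livers, against 11.55, 11.70 and 11.70 in controls (144% of control, 118 to 175%, adjusted p = 0.018). Cox18, which inserts a mitochondrially encoded subunit of complex IV into the membrane, was 8.53, 8.06 and 8.13, against 7.70, 7.74 and 7.86 in controls (139%, adjusted p = 0.013). Cyc1 was at 127% (112 to 145%, adjusted p = 0.014) and the delta subunit Atp5d at 124% (adjusted p = 0.041). None of these 4 groups of values overlapped its controls. The same held for 22 of the 50 members and for 33.6% of all detected genes on this diet. The calls depended on single livers: with high fat replicate 1 left out 0 members passed, with control replicate 1 left out 1, and with high fat replicate 2 left out 2. Atp5a1 was read differently by its probes on this diet: 1 probe rose by 0.44 on the log2 scale (adjusted p = 0.036), while the dimmest of its 3 probes had a difference of -0.44 (adjusted p = 0.061). Of 7 detected genes of ubiquinone synthesis, which makes the carrier between complexes II and III, 3 rose on this diet and 0 fell, with Coq5 at 173%, Coq3 at 152% and Coq9 at 129% of control.

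Diet restriction changed few members, in both directions, and Cox19 showed the largest change of any member in any comparison. Against lab chow, its own diet fed freely, 4 members rose (8%) and 4 fell (8%), while 19.2% of all detected genes rose and 17.6% fell. Against control 3 rose (6%) and 3 fell (6%), beside 13.5% and 16.0% of all genes. The share of members called was therefore under that of all genes on both sides, and the median was 0.02 in both comparisons.

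The genes that fell on diet restriction were assembly factors, apart from Atp5k. Cox19, a small protein that handles copper for complex IV, was 8.41, 8.42 and 8.50 in restricted mice, against 9.28, 9.48 and 9.30 on lab chow and 9.10, 9.59 and 9.43 on control. The restricted livers lay below all others on these diets, at 53.3% of lab chow (43.7 to 65.0%, adjusted p = 2.7e-05) and 52.6% of control (43.1 to 64.1%, adjusted p = 9.8e-05). Sdhaf2 was 7.06, 7.02 and 7.06, against 7.49, 7.34 and 7.40 on lab chow and 7.50, 7.46 and 7.47 on control (77.9% of lab chow, adjusted p = 0.00096; 74.3% of control, adjusted p = 0.00081). Its signal is close to the detection level of 6.64. The fall of Sdhaf2 against lab chow came mainly from 1 of its 2 kept probes, at 7.30, 7.54 and 7.30 against 8.00, 8.07 and 7.99. The other probe was 6.81, 6.50 and 6.82 on diet restriction and overlapped lab chow, at 6.98, 6.61 and 6.80. It lay below control, at 7.03, 6.95 and 6.95. Cox18 was 7.36, 7.55 and 7.16, against 7.84, 7.99 and 7.71 on lab chow (71.2%, adjusted p = 0.0027), and was at 75.1% of control. The fourth, Atp5k, a membrane subunit of ATP synthase, stood at 85.7% of lab chow (adjusted p = 0.028).

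The genes that rose on diet restriction were subunits. Among the detected risers, the Rieske iron-sulfur protein of complex III, Uqcrfs1, was 12.50, 12.52 and 12.46 in restricted mice, against 12.25, 12.22 and 12.16 on lab chow and 11.97, 12.05 and 12.09 on control. It thus reached 121% of lab chow (108 to 136%, adjusted p = 0.0086) and 137% of control (122 to 154%, adjusted p = 0.00059). Atp5g1, 1 of the 3 genes for subunit c of the ATP synthase ring, was 12.41, 12.42 and 12.23, against 12.02, 11.94 and 11.95 on lab chow (131%, 110 to 155%, adjusted p = 0.014). Sdhb was 13.31, 13.04 and 12.96, against 12.79, 12.77 and 12.73 on lab chow (126%, adjusted p = 0.0051), and Cox8a stood at 118% of lab chow (adjusted p = 0.036). Against control the other risers were Uqcrc2 (124%, adjusted p = 0.023) and Atp5d (127%, adjusted p = 0.022). Of the 3 probes of Uqcr10, 1 rose by 0.31 against lab chow (adjusted p = 0.022), while the others had differences of -0.10 and 0.08, and the gene was not called. Without control replicate 2, 3 members passed against control in place of 6.

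**Figure D4:**
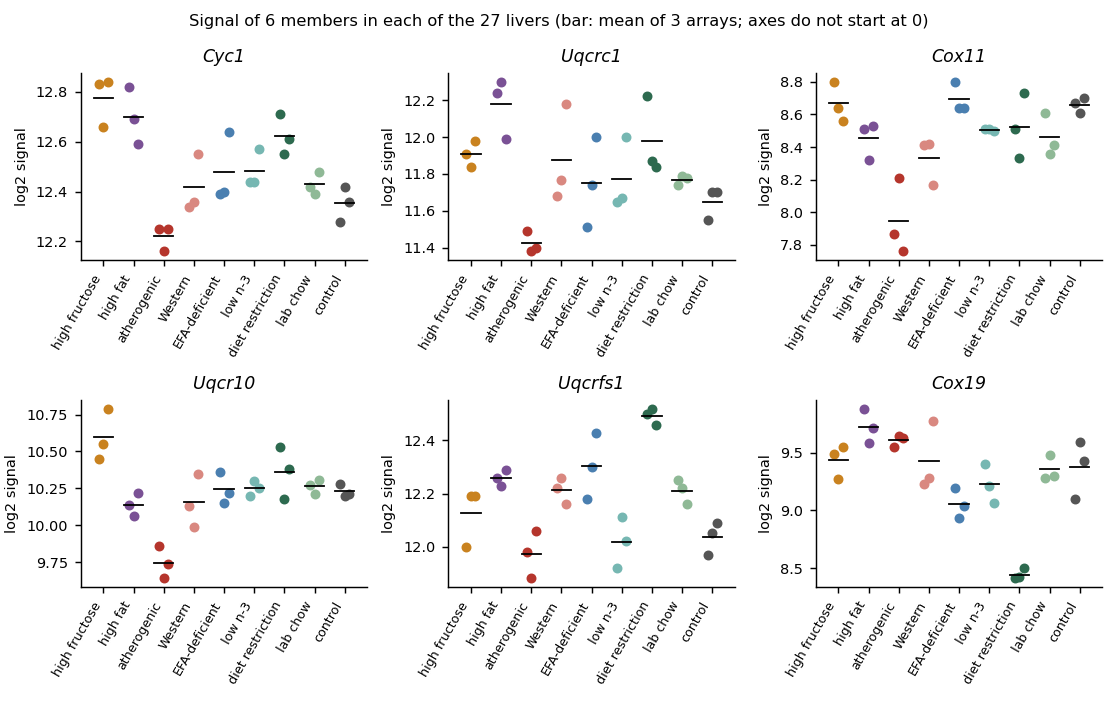
Log2 signal of Cyc1, Uqcrc1, Cox11, Uqcr10, Uqcrfs1 and Cox19 in each of the 27 livers by diet (points; bar, mean of 3 arrays). Cox19 was 8.41 to 8.50 in the diet-restricted livers and 9.28 to 9.48 on lab chow, and Cox11 was 7.76 to 8.21 on the atherogenic diet and 8.61 to 8.70 on control.

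The other mitochondrial lists differed among themselves in the restricted mice. Of 40 complex I genes 7 rose and 3 fell against lab chow (median 0.06), and of 76 genes of the mitochondrial ribosome 10 rose and 9 fell (median -0.02). Beside these and the counts below stand the 19.2% of all detected genes that rose against lab chow and the 17.6% that fell. Ppargc1a, the coactivator known to drive mitochondrial biogenesis, was at 825% of lab chow (means 8.75 on diet restriction and 5.70 on lab chow, adjusted p = 7.6e-07), and Ppargc1b was at 212%. The lab chow mean of Ppargc1a, like its control mean of 6.13, lay under the detection level of 6.64. Its percent is therefore set against an undetected level. Of 17 citric acid cycle genes 8 rose and 0 fell against lab chow, and of 15 carriers and outer membrane proteins 8 rose and 0 fell. Coq10b, a ubiquinone-binding protein, was at 707% of lab chow and Coq8a, a kinase-like protein of ubiquinone synthesis, at 35.3%. Among 18 detected assembly factors of complexes III to V named outside the Cox symbols, 3 rose and 6 fell against lab chow; Sco2, another copper protein of complex IV, was at 56.9% and Coa6 at 201%. Of 7 detected stellate cell markers 1 fell and 0 rose in both comparisons (median -0.50 against lab chow and -0.85 against control). Their summed signal was 4020 to 5850 in restricted mice, against 4190 to 5440 on lab chow and 6200 to 7580 on control. Among 11 detected Kupffer cell markers, 1 rose against lab chow and 0 fell (median -0.26). Against control 1 Kupffer cell marker fell and 0 rose (median -0.93). In the adipocyte and blood lists 1 detected gene moved in each. The summed signal of the 8 adipocyte markers was 395 to 415 in restricted mice, against 8850 to 13800 on lab chow and 9450 to 13000 on control, and the drop was that of Elovl3, with a mean log2 signal of 4.17 on diet restriction and 13.48 on lab chow (0.157% of lab chow, adjusted p = 1.1e-11). Fabp4, the other adipocyte marker detected, was at 122% of lab chow (adjusted p = 0.33), and 5 of the 8 were at the lowest value on each of these diets. The summed signal of the 7 blood and T or NK cell markers was 128 to 190, against 639 to 722 on lab chow and 582 to 664 on control. Only Alas2, an enzyme of heme synthesis in red cell precursors, was detected among them, at 19.9% of lab chow (adjusted p = 4.1e-09), while the hemoglobin gene Hba-a1 was between 2.29 and 2.57 on all arrays. The part of other cells in the members' values was not tested here either.

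The other diets moved at most 1 member. On the Western diet Atp5g1 fell to 75.3% of control (63.5 to 89.2%, adjusted p = 0.03; 11.73, 11.50 and 11.55, against 11.96, 11.98 and 12.07 in controls) and 0 members rose, with 4.48% of all genes lower and 4.31% higher. That call was lost without Western replicate 2 or 3 and without each of the 3 control livers. The other genes for the same subunit did not follow: Atp5g2 and Atp5g3 had adjusted p above 0.05 in all 10 comparisons. On the EFA-deficient diet Uqcrfs1 rose to 120% of control (107 to 135%, adjusted p = 0.038; 12.18, 12.30 and 12.43, against 11.97, 12.05 and 12.09 in controls) and 0 members fell, beside 3.04% and 2.47% of all genes. It did not pass without EFA-deficient replicate 2 or 3 or without any 1 of the control livers.

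On the low n-3 diet limma called 0 members, with 3 at an unadjusted p under 0.05, and on lab chow 0, with 2. Of all genes, 0.340% rose and 0.726% fell on the low n-3 diet, and 2.02% rose and 2.19% fell on lab chow. The Dunnett test that the methods name passed 1 member on each of these diets before adjustment over genes and 0 after it. The members' median was 0.06 on the low n-3 diet and -0.02 on lab chow. Atp5k was the nearest to the threshold on the low n-3 diet, at 117% of control (adjusted p = 0.063).

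Several defining subunits passed the test in none of the 8 comparisons with control. Cox5a was at 98.3 to 110% of control over the 8 diets, Cox4i1 at 96 to 114%, Cox6c at 82.7 to 109% and Atp5b at 85.7 to 122%. For Cox5a the 95% intervals reached down to 89.1% and up to 121%, and larger changes lie outside these intervals. The interval of Atp5b was wider, from 72.6% at its lowest bound to 145% at its highest. The 15 members that did not pass the F test over the 9 diets were, besides Cox4i1, Cox5a and Cox6c, the anchor Sdhc, the assembly factors Sdhaf3, Sdhaf4, Cox16, Cox17 and Cox20, and Cox8a, Atp5e, Atp5g2, Atp5j, Atp5l and Atp5pb. Of these, Cox8a was just over the threshold (F test adjusted p = 0.0589), and it passed the test against lab chow on diet restriction.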

How the data were processed

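The values that the authors deposited are log2 signals of Affymetrix mouse arrays, normalized by them with GCRMA, 1 column per mouse. No further scaling was applied. The platform annotation gave the gene symbols, and the kept probes of a gene that carry 1 symbol only were averaged. As in the study's methods, a probe was kept where its mean exceeded log2(100) on at least 1 diet, and 1 limma fit (limma 3.58.1, R 4.3.3) over all 27 arrays gave the differences. The Benjamini-Hochberg adjustment ran over the 6478 detected genes and the 8 comparisons with control together, and within each of the 2 other comparisons, at 0.05. With 3 arrays per diet, an exact permutation test of 1 gene could not go below p = 0.1, so single genes were tested in the common fit. Arrays were grouped by the diet their labels name. Each mouse is 1 sample; the median of kept probes was 8.22 to 8.38 on every array, and the number of arrays limits the precision.

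The members and the comparison lists, written from textbook knowledge, were chosen with earlier results of these data known. All members are accounted for; values are given for the core subunits, the isoform sets, up to 4 increases and 4 decreases per comparison, members called in 3 or more comparisons and members whose probes differ in sign, and for other lists up to 3 called genes per comparison. Summed marker levels add linear signals over the genes of a list. The fit was tested on simulated data. Promoter sequences are from RefSeq (GRCm38.p6). Alternatives were another adjustment, other signal filters, a fit of the diets compared alone, 2 other scalings, the replicate number as a block, the brightest probe, the methods' Dunnett test, and each array left out. Figures were drawn with matplotlib 3.10.9.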

Additional observations from a re-analysis of the deposited data

How the results depend on the processing

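Across the alternatives tried, no called member changed sign, and 9 of the 52 differences called in the 10 comparisons passed the test under every alternative run: Cox11 and Uqcr10 on the atherogenic diet and Cox19, Sdhaf2 and Uqcrfs1 on diet restriction against control, and Atp5g1, Cox18, Cox19 and Sdhaf2 on diet restriction against lab chow. With p adjusted within each comparison, 2 members passed on high fructose, 0 on the EFA-deficient diet and 12 on diet restriction against control. With no filter on low signal, 0 passed on the Western and 1 on the low n-3 diet, and the atherogenic median was -0.13 against control and -0.12 against Western; with the filter at log2(200), 2 passed on the Western diet. Fits of the compared diets alone called 0 members on high fructose, 1 on high fat, 0 on Western, 3 on atherogenic and 0 on EFA-deficient against control, 4 on diet restriction against lab chow and 0 on atherogenic against Western; they rest on 6 arrays each. With arrays centred on their medians, 9 members passed on high fructose (median 0.18), 1 on low n-3 (0.11) and 23 on atherogenic against Western (-0.25), and the median was 0.04 for lab chow and -0.03 for diet restriction against lab chow. The brightest probe gave 2 calls on the Western diet. The methods' Dunnett test, unadjusted over genes, passed 11 members on high fructose, 8 on high fat, 5 on Western, 2 on EFA-deficient, 1 on low n-3, 1 on lab chow and 12 on diet restriction; after Benjamini-Hochberg it passed 1 on high fat, 0 on Western, 8 on atherogenic, 0 on EFA-deficient and 3 on diet restriction. The cause of these moves was not tested. The share of all detected genes that passed under each alternative is not given, so these counts alone do not set the members apart from other genes.

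Leaving out 1 array at a time gave 2 to 4 calls on high fructose (median 0.06 to 0.14), 0 to 3 on high fat (-0.02 to 0.07), 0 to 2 on Western, 5 to 17 on atherogenic, 0 to 1 on EFA-deficient and 3 to 6 on diet restriction against control, 6 to 9 on diet restriction against lab chow and 3 to 10 on atherogenic against Western (-0.20 to -0.12). With the replicate number as a block, 1 member passed on the low n-3 diet, and no other count of calls moved by over 1.5 times. The labels tie the numbers to no shared litter, batch or day. Arrays of 1 number on different diets had a median correlation of 0.00 in their deviations (-0.27 to 0.41 over 108 pairs). For arrays of different numbers the median was -0.01. Of 27 arrays, 17 lay nearest to another array of their own number. Whether that exceeds chance was not tested, so these values do not show that the numbers are free of a shared factor. Leaving out the probes that the maker marks as shared between sequences, an alternative chosen after seeing the data, gave 12 calls on the atherogenic diet against control and 14 against Western.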
